A study of Mus musculus with 12 samples.

Results

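The 10 amino acid transporter genes described here, Slc7a5, Slc3a2, Slc7a11, Slc7a1, Slc7a3, Slc1a4, Slc1a5, Slc6a9, Slc38a1 and Slc38a2, were taken by gene name from a count table of 56748 mouse genes, of which 16465 had enough reads to be tested. All 10 were tested. The libraries came from 10T1/2 cells, written CH310T1/2 in the labels, an established wild-type mouse mesenchymal progenitor line that was starved of serum, held in suspension for 1 h and then plated for 18 h on 12 kPa hydrogels carrying a coat of type I collagen (0.05 mg/mL). Serum was listed at 0.5% for every library, the percentage that the study's methods give for plating on the hydrogels. In the col1 group the coating was collagen alone. In the col1-ACLP group the collagen had polymerized with 30 nM recombinant aortic carboxypeptidase-like protein (ACLP), a secreted collagen-binding protein. In the col1-ACLP+SB group the ACLP coating was combined with SB431542, an inhibitor of the TGFβ type I receptor ALK5. Each group had 4 libraries. No group received the inhibitor on collagen without ACLP, so all libraries with the inhibitor also carried ACLP.

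Amino acid transporters move amino acids across the plasma membrane, and the family is divided by substrate and by mode of exchange. Slc3a2 encodes the heavy chain 4F2hc (CD98), a single-pass glycoprotein that brings several light chains to the cell surface. Slc7a5 encodes the light chain LAT1, which exchanges large neutral amino acids such as leucine, and Slc7a11 encodes xCT, which imports cystine in exchange for glutamate. Slc7a1 and Slc7a3 encode the cationic amino acid carriers CAT-1 and CAT-3, which take up arginine and lysine without a heavy chain. Slc1a4 and Slc1a5 encode the neutral exchangers ASCT1 and ASCT2, with serine, alanine and, for ASCT2, glutamine among their substrates. Slc6a9 encodes the glycine transporter GlyT1, and Slc38a1 and Slc38a2 encode the sodium-coupled neutral carriers SNAT1 and SNAT2. In fibroblast-like cells this uptake supplies protein synthesis, including that of glycine- and proline-rich collagens. Several of these genes are known targets of ATF4, a transcription factor that binds with C/EBP partners to composite elements (CARE) when amino acids are scarce or protein folding is disturbed.

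The letters of that element, TGATGNAA on either strand, were searched around the annotated start of each transporter in the mouse genome (GRCm39, GENCODE canonical transcripts). In the window from 250 bases before to 50 bases after the start, Slc7a11 and Slc38a1 held a match, 2 of 10 transporters, against 3.84% of 21770 protein-coding windows. In the window of 1000 bases on each side 8 of 10 transporters held a match, against 22% of all windows and 17.5% of the windows of tested genes. Slc7a5 and Slc3a2 held none in either window around the canonical start. They have 13 and 22 annotated transcripts, and other starts were not searched. The sites are shown so that each can be set beside the change of its gene. The capitals mark the match, each sequence reads 5′ to 3′ along the strand of its gene, and a match on the opposite strand appears as its reverse complement.
Slc7a11, chr3:50398076-50398154, minus strand, 91 to 13 bases before the start, outside annotated exons: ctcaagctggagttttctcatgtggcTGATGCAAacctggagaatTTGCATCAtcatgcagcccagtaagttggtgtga
Slc38a1, chr15:96540301-96540360, minus strand, 82 to 23 bases before the start, outside annotated exons: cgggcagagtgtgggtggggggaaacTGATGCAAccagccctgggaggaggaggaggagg
Slc1a4, chr11:20282699-20282728, minus strand, match from 58 bases after the start, in an exon: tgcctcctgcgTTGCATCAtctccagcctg
Slc6a9, chr4:117692582-117692611, plus strand, match from 346 bases after the start, in an exon: cctcgggaggcTGATGCAActttcccttta
Slc7a1, chr5:148336299-148336328, minus strand, match from 532 bases after the start, outside annotated exons: ggcgtggtgcaTGATGCAAcagcgggaggg
Slc38a2, chr15:96597047-96597076, minus strand, match from 563 bases after the start, in an exon: gcccctcggtaTTGCATCAgttcctcccgg

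Slc7a1 held a second match from 201 bases after its start, Slc7a3 held 1 from 239 bases after and Slc1a5 held 1 from 990 bases before. Among the 6 transporters that rose on col1-ACLP, 4 held a match (Slc7a11, Slc7a1, Slc1a4 and Slc6a9), and all 4 that did not pass the test held one (Slc7a3, Slc1a5, Slc38a1 and Slc38a2). The antioxidant response element, searched as TGACNNNGC on both strands, was found in 1 of 10 transporters in the shorter window (Slc38a2), against 12.5% of windows, and in 5 of 10 in the longer one, against 51.7%. These counts describe letters in a window and no binding was measured.

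Total counts per library ran from 29246154 to 52201922. Col1 replicate 2 stood apart from the other libraries of its group, at -86.7 on the first principal component against -11.1 to -8.97 for the other 3, and the counts of genes past the test are therefore also given without it where it moves them. All 8 mesenchymal markers (Col1a1, Col1a2, Col3a1, Pdgfra, Pdgfrb, Thy1, Vim and S100a4) were tested, with summed levels of 33460 to 34642 CPM (counts scaled to the library total times its TMM factor) on col1, 43393 to 52318 on col1-ACLP and 40056 to 45645 on col1-ACLP+SB. The markers did not move together on col1-ACLP. The collagen I genes Col1a1 and Col1a2 rose (log2 fold change 0.82 and 0.65), Pdgfra, Pdgfrb and S100a4 fell (-0.76, -0.15 and -0.50, all with adjusted p at or below 0.0240 by edgeR), and Col3a1, Thy1 and Vim did not pass, with a median of -0.02 over the 8. The summed levels of 3 endothelial markers were at most 0.399 CPM, those of 3 adipocyte markers at most 0.269, those of 4 epithelial markers at most 4.04 and those of 4 immune markers at most 11.8, and the muscle regulators Myod1 and Myog were at 0 in every library. Of the immune markers, Adgre1 was at 0 in every library and Ptprc had 12 reads in all, while Cd68, which held most of the sum, fell from 9.47 ± 0.50 CPM on col1 to 6.73 ± 1.47 on col1-ACLP (log2 fold change -0.49, adjusted p = 0.0284 by edgeR), a call lost in 5 of 20 alternative settings (adjusted p up to 0.116), among them without col1 replicate 2. The part of these marker levels in the transporter results was not tested. In these bulk libraries a change in the number of cells expressing a gene and a change in RNA per cell cannot be told apart.

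On collagen alone, the 10 mRNAs spanned a wide range of levels when scaled to gene length (CPM per kilobase, mean ± SD of 4 libraries). Slc3a2 stood highest at 78.0 ± 1.74 CPM per kilobase, followed by Slc38a2 at 47.1 ± 1.31 and Slc7a5 at 31.9 ± 0.992, and these 3 did not overlap. A middle group followed in which neighbours in the order overlapped over their 4 libraries: Slc6a9 at 7.17 ± 0.447, Slc1a4 at 6.54 ± 0.616, Slc1a5 at 5.91 ± 0.521 and Slc7a1 at 5.21 ± 0.10 CPM per kilobase. Slc7a11 at 1.56 ± 0.114, Slc38a1 at 1.20 ± 0.0800 and Slc7a3 at 0.593 ± 0.136 closed the order without overlap. On col1-ACLP the order changed. Slc7a5 stood second, at 68.6 ± 7.33 against 49.9 ± 1.85 for Slc38a2, and Slc1a4 came after them at 16 ± 2.29 CPM per kilobase, above Slc6a9 at 10.6 ± 0.736 and Slc7a1 at 9.74 ± 0.878, which overlapped. The same 4 genes led the order on col1-ACLP+SB, with Slc3a2 at 89.0 ± 3.82, Slc7a5 at 55.0 ± 2.79, Slc38a2 at 47.0 ± 0.855 and Slc1a4 at 13.4 ± 2.17 CPM per kilobase, and below them Slc6a9 overlapped Slc7a1, Slc7a1 overlapped Slc1a5, and Slc38a1 overlapped Slc7a3.

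**Figure D1:**
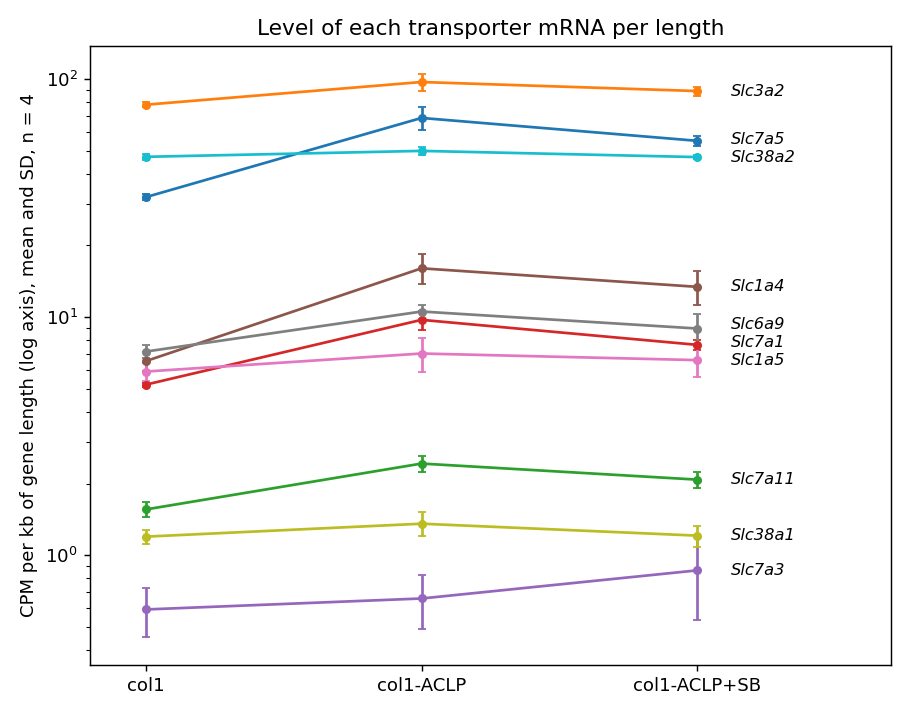
Level of each of the 10 transporter mRNAs per gene length (CPM per kilobase, log axis) in the col1, col1-ACLP and col1-ACLP+SB groups. Points are means of 4 libraries and bars their SD. Slc7a5 lies below Slc38a2 on col1 and above it in both groups with ACLP, and Slc1a4 moves from 6.54 to 16 CPM per kilobase.

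The first comparison asked which transporters responded to ACLP in the collagen. On col1-ACLP 6 of the 10 transporters rose relative to col1 and none fell: the light chains Slc7a5 and Slc7a11, their heavy chain Slc3a2, the cationic carrier Slc7a1, the serine and alanine exchanger Slc1a4 and the glycine transporter Slc6a9. Over all tested genes 9.52% rose and 8.41% fell by the same criterion, an adjusted p under 0.05 by edgeR's quasi-likelihood F-test, with the Benjamini-Hochberg correction over all tested genes. Slc7a5, Slc7a11, Slc7a1 and Slc1a4 also passed a log2 fold change of 0.58, which 2.61% of tested genes did in that direction and 2.36% in the other. The 4 col1-ACLP libraries lay wholly above the 4 col1 libraries for all 6 genes that rose and for none of the other 4, against 10.9% of tested genes, and wholly below for none, against 10.3%. The median log2 fold change was 0.44 over the 10 transporters and -0.01 over all tested genes. Without col1 replicate 2 the counts were again 6 and 4. The transporters were chosen with earlier results of these data known, so the shares beside these counts are description and no independent test.

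Among the heterodimeric carriers, Slc7a5 (ENSMUSG00000040010, chr8:122607889-122634433) was at 114, 122, 116 and 121 CPM in the col1 libraries, at 251, 231, 242 and 293 in col1-ACLP and at 210.4, 212, 204 and 189 in col1-ACLP+SB. The 3 groups did not overlap, with all libraries on ACLP above those on collagen alone and the inhibitor group in between. Slc7a5 rose 2.15-fold on col1-ACLP (log2 fold change 1.10, standard error 0.0612, adjusted p = 7.09e-13 by edgeR). In col1-ACLP+SB it was 1.72-fold above col1 (log2 fold change 0.79, standard error 0.0610, adjusted p = 8.39e-10).

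Its heavy chain Slc3a2 (ENSMUSG00000010095, chr19:8684246-8700733) was at 277, 282, 273 and 268 CPM on col1, at 330.4, 324, 333 and 383 on col1-ACLP and at 310.3, 334, 307 and 304 with the inhibitor added. Both ACLP groups lay above col1 and overlapped each other. The rise was smaller than that of Slc7a5, 1.25-fold on col1-ACLP (log2 fold change 0.32, standard error 0.0514, adjusted p = 5.26e-05 by edgeR) and 1.14-fold with the inhibitor (0.19, standard error 0.0514, adjusted p = 0.0169). The exons of Slc3a2 share 743 of 4666 annotated bases with Snhg1, a non-coding gene on the opposite strand. Snhg1 had a log2 fold change of 0.08 on col1-ACLP (adjusted p = 0.616 by edgeR), or 0.028 to 0.16 over the libraries left out in turn. The strand setting of the counting is not given in the sources used here.

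Slc7a11 (ENSMUSG00000027737, chr3:49846975-50398063) was at 20.8, 23.7, 20.2 and 22.2 CPM on col1, at 33.4, 30.6, 34.4 and 36.9 on col1-ACLP and at 32.0, 27.9, 29.3 and 26.6 with the inhibitor added. All 8 libraries with ACLP lay above the 4 without it. The rise was 1.56-fold on col1-ACLP (log2 fold change 0.64, standard error 0.0861, adjusted p = 3.71e-06 by edgeR) and 1.33-fold on col1-ACLP+SB (0.42, standard error 0.0861, adjusted p = 0.00163). Slc7a11 held 2 CARE matches close before its start, shown above. It also held matches to the antioxidant response element from 870 bases before and from 344 and 517 bases after its start. Slc38a1, with 1 CARE match close before its start, did not pass the test, and Slc7a5, with none in either window, rose. The part of these sites in the rise was not tested.

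Because LAT1 and xCT both need 4F2hc at the cell surface, the light chain mRNA was set against the heavy chain mRNA within each library, both per length. The ratio of Slc7a5 to Slc3a2 was 0.409 ± 0.0156 on col1 (SD, n = 4, range 0.392 to 0.430), 0.706 ± 0.0237 on col1-ACLP (0.678 to 0.728) and 0.618 ± 0.0248 on col1-ACLP+SB (0.592 to 0.645). No 2 groups overlapped. The ratio of Slc7a11 to Slc3a2 was far lower, at 0.0200 ± 0.00131 on col1 (0.0187 to 0.0213), 0.0250 ± 0.00108 on col1-ACLP (0.0239 to 0.0263) and 0.0234 ± 0.00221 on col1-ACLP+SB (0.0211 to 0.0261), where the inhibitor group overlapped both others. These ratios are descriptions and were not tested. Slc7a6 (y+LAT2), another light chain that pairs with 4F2hc, was at 72.5 ± 3.83 CPM on col1, 72.6 ± 4.52 on col1-ACLP and 70.5 ± 1.30 with the inhibitor and did not pass the test (adjusted p = 0.991 by edgeR for col1-ACLP against col1). It was chosen for the shared heavy chain after its values were seen.

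**Figure D2:**
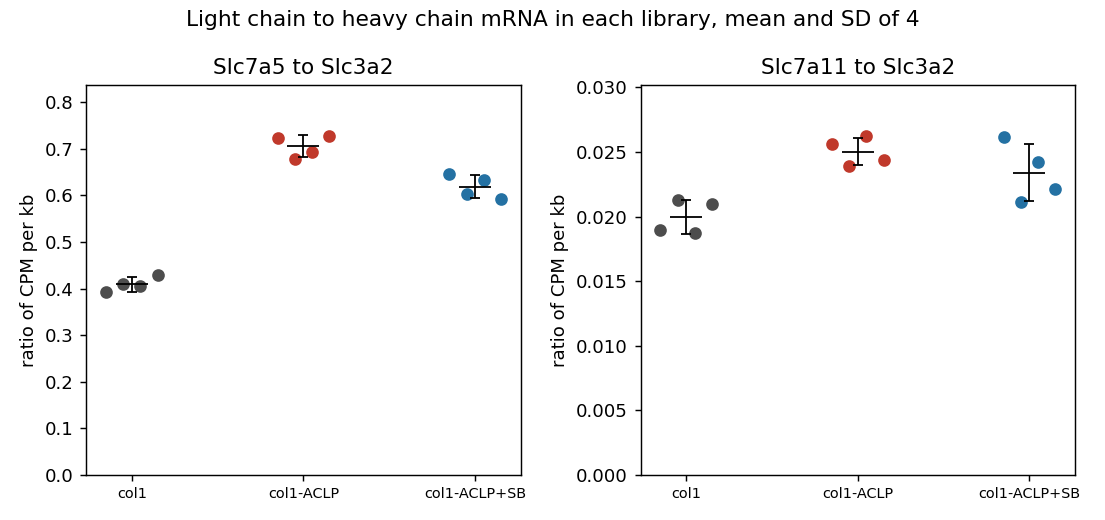
Ratio of light chain to heavy chain mRNA in each library, both as CPM per kilobase, for Slc7a5 over Slc3a2 and for Slc7a11 over Slc3a2. Points are libraries and bars the mean and SD of 4. The Slc7a5 ratio is at most 0.430 on col1 and at least 0.592 in every library with ACLP.

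Of the cationic carriers, Slc7a1 (ENSMUSG00000041313, chr5:148264220-148336714) was at 61.0, 59.4, 61.0 and 58.7 CPM on col1, at 106, 102, 117 and 124 on col1-ACLP and at 85.5, 88.4, 94.7 and 84.2 with the inhibitor added. As for Slc7a5, the 3 groups did not overlap and the inhibitor group lay in between. Slc7a1 rose 1.87-fold on col1-ACLP (log2 fold change 0.90, standard error 0.0624, adjusted p = 3.87e-11 by edgeR) and 1.47-fold on col1-ACLP+SB (0.56, standard error 0.0622, adjusted p = 4.29e-07). The second value is just under the log2 threshold of 0.58. Slc7a3 (ENSMUSG00000031297, chrX:100122816-100129626) was the weakest of the 10, at 2.61, 1.48, 2.37 and 2.51 CPM on col1, 2.41, 1.66, 3.14 and 2.76 on col1-ACLP and 2.65, 4.97, 2.1 and 3.37 with the inhibitor added. These are 56 to 148 reads per library, and the groups overlapped throughout. Its log2 fold change was 0.15 on col1-ACLP (standard error 0.295, adjusted p = 0.811 by edgeR) and 0.54 on col1-ACLP+SB (standard error 0.292, adjusted p = 0.325), the latter running from 0.27 to 0.70 over the libraries left out in turn. Neither passed the test, and the standard errors were the largest of the 10.

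The neutral exchangers divided. Slc1a4 (ENSMUSG00000020142, chr11:20252180-20282713) had the largest log2 fold change of the 10 transporters, at 23.2, 29.0, 25 and 25.4 CPM on col1, 58.6, 57.7, 59.0 and 76.4 on col1-ACLP and 49.9, 65.2, 46.5 and 49.0 with the inhibitor added. All libraries with ACLP lay above all libraries without it, and the 2 ACLP groups overlapped. The rise was 2.45-fold on col1-ACLP (log2 fold change 1.29, standard error 0.103, adjusted p = 5.12e-10 by edgeR) and 2.05-fold on col1-ACLP+SB (1.03, standard error 0.103, adjusted p = 6.05e-08). Slc1a5 (ENSMUSG00000001918, chr7:16515265-16532199) was at 24.7, 27.1, 25 and 21.9 CPM on col1, 25, 29.3, 27.2 and 36.1 on col1-ACLP and 27.7, 33.5, 25 and 24.0 with the inhibitor added. The 3 groups overlapped. Its log2 fold change was 0.25 on col1-ACLP (standard error 0.112, adjusted p = 0.134 by edgeR) and 0.16 on col1-ACLP+SB (standard error 0.111, adjusted p = 0.488). Over the libraries left out in turn these ran from 0.14 to 0.32 and from 0.054 to 0.22.

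The glycine transporter Slc6a9 (ENSMUSG00000028542, chr4:117691703-117732395) was at 37.5, 33.5, 38.5 and 38.0 CPM on col1, 56.9, 50.1, 52.1 and 58 on col1-ACLP and 45.7, 55.4, 45.0 and 38.1 with the inhibitor added. The col1-ACLP libraries lay above all col1 libraries, while the lowest inhibitor library fell within the col1 range. Slc6a9 rose 1.47-fold on col1-ACLP (log2 fold change 0.56, standard error 0.0880, adjusted p = 3.48e-05 by edgeR) and 1.25-fold on col1-ACLP+SB (0.32, standard error 0.0880, adjusted p = 0.0190). Its exons share 551 of 6077 annotated bases with B4galt2 and 1429 with Ccdc24, both on the opposite strand. B4galt2 had more reads than Slc6a9, 29194 against 19217 over all libraries, and was at 65.2 CPM on col1 and 71.8 on col1-ACLP. Its log2 fold change on col1-ACLP was 0.14 (adjusted p = 0.146 by edgeR). Ccdc24 was at 0.626 CPM on col1 and 0.679 on col1-ACLP. Here too the unknown strand setting leaves the part of reads from the opposite strand untested.

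The sodium-coupled carriers did not pass the test. Slc38a2 (ENSMUSG00000022462, chr15:96585273-96597611), the mRNA with the most reads of the 10, was at 433, 407, 412 and 413 CPM on col1, 443, 424, 434 and 463 on col1-ACLP and 418, 412, 424 and 407 with the inhibitor added. Its log2 fold change was 0.08 on col1-ACLP (standard error 0.0419, adjusted p = 0.200 by edgeR), a small estimate with the smallest standard error of the 10. Slc38a1 (ENSMUSG00000023169, chr15:96469299-96540794) was at 19.7, 22.4, 21.1 and 19.4 CPM on col1, 23.6, 19.7, 26.0 and 24.3 on col1-ACLP and 21.8, 23.2, 20.1 and 18.4 with the inhibitor added. The groups overlapped for both genes, and the log2 fold change of Slc38a1 on col1-ACLP was 0.18 (standard error 0.10, adjusted p = 0.254 by edgeR).

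**Figure D3:**
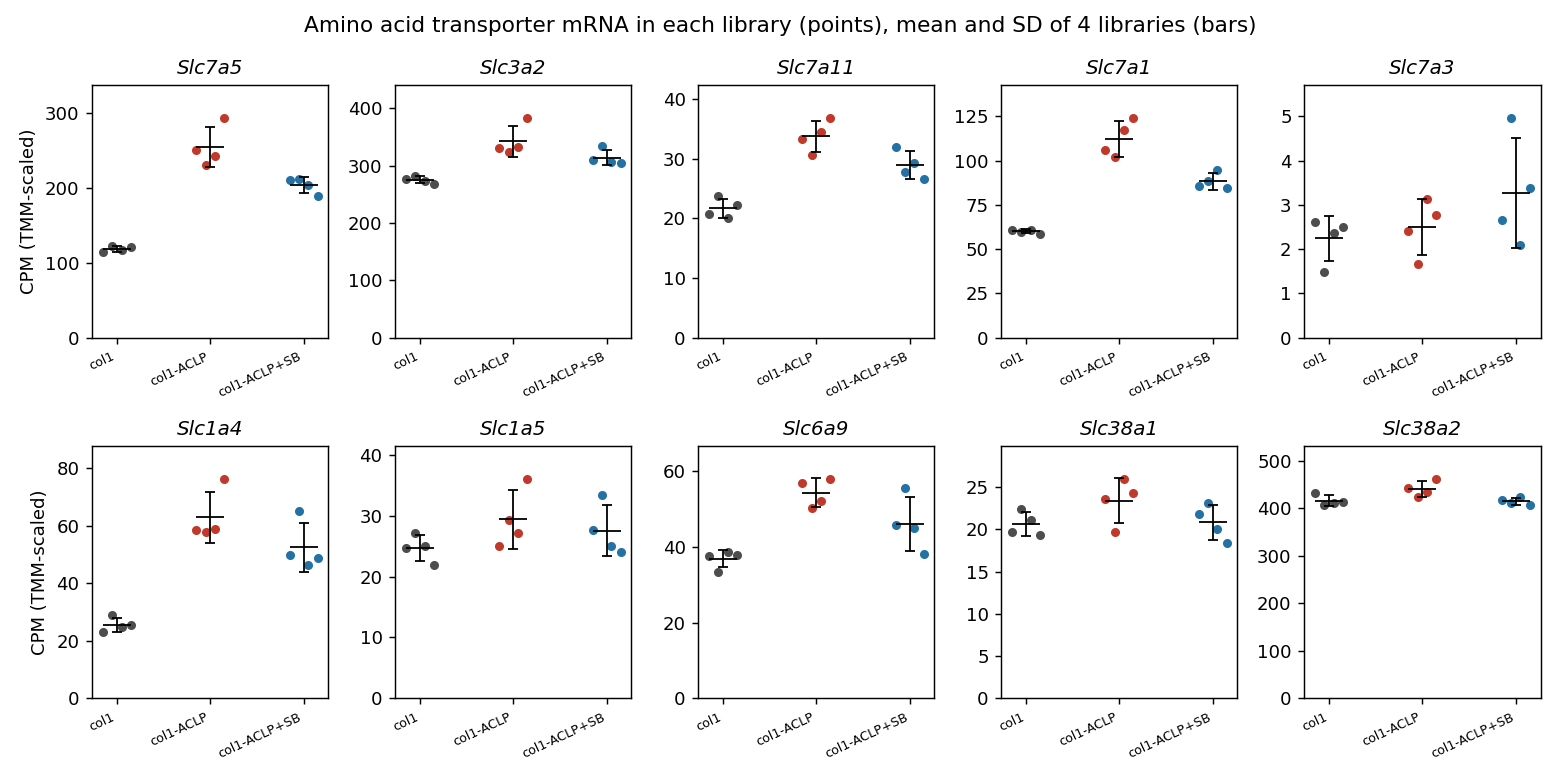
CPM of each transporter mRNA, scaled with TMM (trimmed mean of M-values) library factors, in the 12 libraries, with a panel for each gene and its own axis from 0. Points are libraries in replicate order, and bars give the mean and SD of 4. The libraries with ACLP lie above those on col1 for Slc7a5, Slc3a2, Slc7a11, Slc7a1 and Slc1a4.

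Within the col1-ACLP group 1 library was highest for most of these genes. Replicate 4 had the highest level for 8 of the 10 transporters, while replicate 2 had the lowest for 9. Replicate 4 also had the fewest reads, 29246154, and the lowest TMM factor, 0.966. Without it the 6 transporters that rose again passed, with a log2 fold change of 1.03 for Slc7a5 and 1.19 for Slc1a4, and the 4 past the fold threshold were again 4. In the col1-ACLP+SB group replicate 2 was highest for 7 of the 10 and replicate 4 lowest for 8.

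The second comparison asked which of these differences were present with ALK5 inhibited. On col1-ACLP+SB 6 of the 10 transporters were higher than on col1 and none was lower, against 4.6% of tested genes higher and 4.54% lower. They were Slc7a5, Slc3a2, Slc7a11, Slc7a1, Slc1a4 and Slc6a9, and Slc7a5 and Slc1a4 also passed the fold threshold, against 1.27% of tested genes upward and 1.01% downward. Those 2 also passed without col1 replicate 2. For 5 of the 10 the libraries lay wholly above those of col1, against 6.7% of tested genes, and for none wholly below, against 6.32%. The median log2 fold change was 0.37 over the 10 transporters and 0.0046 over all tested genes. Both comparisons use the same col1 libraries. Without col1 replicate 2 the count was 5, since Slc6a9 no longer passed (log2 fold change 0.28, adjusted p = 0.0658 by edgeR). Without col1-ACLP+SB replicate 2 it was 4, with an adjusted p of 0.0575 for Slc3a2 and 0.101 for Slc6a9 by edgeR. Without col1 replicate 4 it was 5, with an adjusted p of 0.0574 for Slc3a2 by edgeR.

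**Figure D4:**
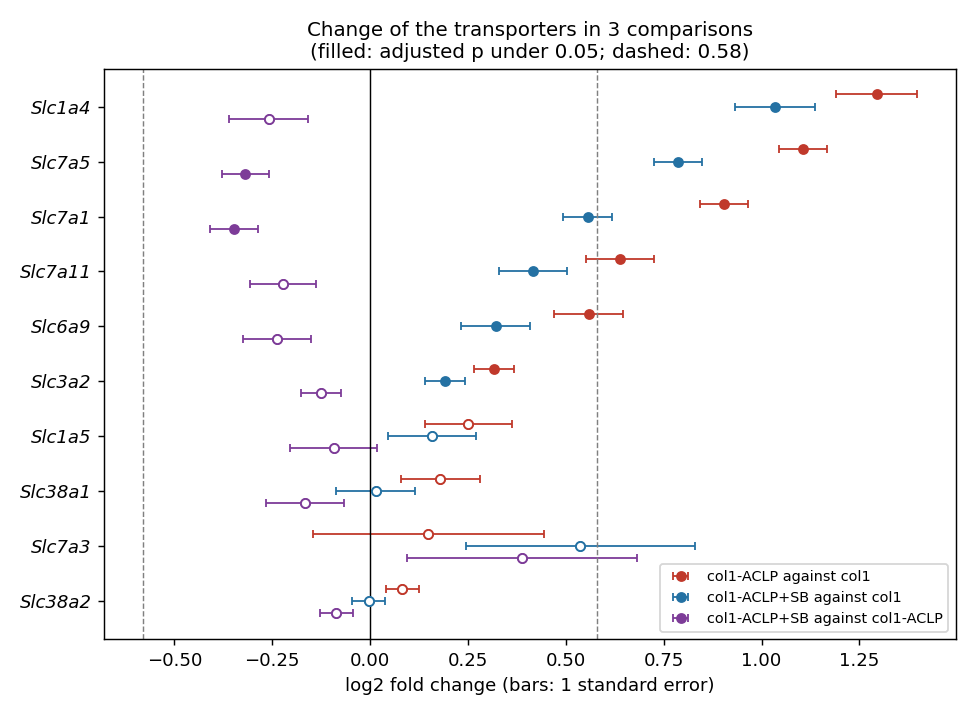
Log2 fold change of each transporter in the 3 comparisons, with bars of 1 standard error from edgeR. Filled points have an adjusted p under 0.05 and dashed lines mark a log2 fold change of 0.58 in either direction. In the direct comparison of the ACLP groups the filled points are Slc7a5 at -0.32 and Slc7a1 at -0.35.

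The third comparison set the inhibitor group directly against col1-ACLP. Slc7a5 and Slc7a1 were lower with SB431542, 2 of the 10 transporters against 0.905% of tested genes, and none was higher, against 0.571%. Slc7a5 was 0.802-fold of its col1-ACLP level (log2 fold change -0.32, standard error 0.0603, adjusted p = 0.00554 by edgeR) and Slc7a1 0.786-fold (-0.35, standard error 0.0616, adjusted p = 0.00350). Neither passed the fold threshold, which 0.0425% of tested genes did downward and 0.085% upward. For both genes every inhibitor library lay below every col1-ACLP library, against 4.52% of tested genes, and above every col1 library. No transporter lay wholly above, against 3.65%. The estimates of Slc1a4 (-0.26, adjusted p = 0.232), Slc6a9 (-0.24, adjusted p = 0.207), Slc7a11 (-0.22, adjusted p = 0.230) and Slc3a2 (-0.13, adjusted p = 0.269) did not pass edgeR's test. The estimates of Slc38a1 and Slc38a2 were -0.17 and -0.09, that of Slc1a5 was -0.09 and that of Slc7a3 was 0.39 (0.12 to 0.55 over the libraries left out in turn), also short of the threshold. Without col1-ACLP+SB replicate 2 the number lower was 4, with Slc1a4 (-0.38, adjusted p = 0.0450 by edgeR) and Slc6a9 (-0.34, adjusted p = 0.0427) added. Without col1-ACLP replicate 4 it was 2, and the estimates of Slc1a4 and Slc3a2 shrank to -0.15 and -0.07 (adjusted p = 0.618 and 0.664 by edgeR). With no filter on low counts it was 3, with Slc1a4 added (-0.27, adjusted p = 0.0332 by edgeR). Without col1 replicate 2 it was again 2. The median log2 fold change was -0.19 over the 10 transporters and 0.0049 over all tested genes.

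Summed over the 10 genes, the transporter mRNA pool was 185 ± 2.24 CPM per kilobase on col1, 263 ± 21.6 on col1-ACLP and 232 ± 10.8 with the inhibitor (SD, n = 4). Its composition moved toward Slc7a5, which made up 17.2% ± 0.560 of the pool on col1, 26.0% ± 0.686 on col1-ACLP and 23.7% ± 0.638 with the inhibitor, and toward Slc1a4, at 3.53% ± 0.310, 6.07% ± 0.361 and 5.77% ± 0.686. The shares of Slc38a2 were 25.4% ± 0.753, 19.0% ± 0.838 and 20.3% ± 0.961, and those of Slc3a2 were 42.1% ± 0.446, 36.9% ± 0.354 and 38.4% ± 0.567. No test was made on the pool.

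The 6 genes that rose on col1-ACLP followed each other over the 12 libraries, with Pearson correlations of log2 CPM from 0.832 to 0.980 over their 15 pairs, and from 0.112 to 0.869 after the group means were removed. The other 30 pairs of transporters ran from 0.0198 to 0.792, and from -0.174 to 0.866 without the group means. The choice of these 6 genes fixes a shared group difference in the first range. The genes most like each transporter past both thresholds were named by Pearson r over the 12 libraries among all tested genes. For Slc7a5 they were Actn1 (α-actinin, an actin crosslinker, r = 0.997), Iars (isoleucyl-tRNA synthetase, 0.995) and Cdsn (0.994). For Slc7a1 they were Edem1 (disposal of misfolded glycoproteins in the endoplasmic reticulum, 0.995), Col5a2 (a collagen V chain, 0.993) and Cdh2 (N-cadherin, 0.992). For Slc1a4 they were Aldh18a1 (proline synthesis, 0.993), Trib3 (a pseudokinase induced by ATF4, 0.991) and Pck2 (mitochondrial phosphoenolpyruvate carboxykinase, 0.989). For Slc7a11 they were Shmt2 (mitochondrial serine to glycine conversion, 0.981), Ppfibp1 (0.979) and Zdhhc2 (0.979).

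Across 45 other amino acid transporter genes, 22 were tested, 10 were at 0 in every library and 13 had too few reads. On col1-ACLP 3 of the 22 rose and 3 fell, against 9.52% and 8.41% of all tested genes, with a median log2 fold change of -0.06. Without col1 replicate 2 these counts were 2 and 2, and Slc43a2 no longer passed the fold threshold. The taurine transporter Slc6a6 rose from 855 ± 36.7 CPM on col1 to 1183 ± 64.4 on col1-ACLP and 1101 ± 45.9 with the inhibitor (log2 fold change 0.47 and 0.37 against col1, adjusted p = 1.37e-08 and 1.68e-06 by edgeR). The leucine-type facilitator Slc43a2 (LAT4) fell, from 19.2 ± 2.21 CPM to 12.2 ± 1.65 and 13.0 ± 0.534 (log2 fold change -0.65 and -0.56, adjusted p = 1.39e-04 and 0.00126). The glutamate transporter Slc1a3 rose slightly (0.19 and 0.23, adjusted p = 0.0228 and 0.00815 by edgeR), and the cationic carrier Slc7a2 fell slightly, from 390 ± 14.5 CPM to 358 ± 2.30 and 352 ± 7.16 (-0.12 and -0.15, adjusted p = 0.0387 and 0.0250).

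The brain-type proline transporter Slc6a7 had only 0.245 ± 0.257 CPM on col1 and 1.44 ± 0.604 on col1-ACLP (adjusted p = 0.0117 by edgeR). Slc38a6 fell on col1-ACLP (-0.29, adjusted p = 0.0350 by edgeR), with 24.6 ± 0.992 CPM on col1 and 20.1 ± 1.64 on col1-ACLP. Slc6a20b was at 0.157 to 0.448 CPM in the group means and did not pass. On col1-ACLP+SB against col1, 2 of the 22 were higher and 2 lower, against 4.6% and 4.54% of all tested genes, none past the fold threshold, with a median of -0.03. Directly between the ACLP groups 0 of 22 passed in either direction, against 0.571% higher and 0.905% lower of all tested genes, with a median of 0.06. Of these calls on col1-ACLP, that of Slc7a2 was lost in 10 of 20 alternative settings (adjusted p up to 0.156 by edgeR), that of Slc38a6 in 7 (up to 0.115) and that of Slc1a3 in 5 (up to 0.108). On col1-ACLP+SB the call of Slc7a2 was lost in 5 (up to 0.115). Slc7a2 was named after its values were seen.

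A list of 38 other genes of the ATF4 response, among them enzymes of serine, asparagine and proline synthesis and tRNA synthetases, was set beside the transporters. Like the other lists, it was chosen with earlier results of these data known, so the shares beside its counts are description and no independent test. On col1-ACLP 28 of 37 tested rose, against 9.52% of all tested genes, and 1, Cebpb, fell (log2 fold change -0.35, adjusted p = 0.00189 by edgeR), against 8.41%. Of the 28, 22 passed the fold threshold, against 2.61% of all tested genes, and the median log2 fold change was 0.67. On col1-ACLP+SB 27 rose against col1 and none fell, against 4.6% and 4.54% of all tested genes, with a median of 0.47, and 11 passed the fold threshold, against 1.27% (13 without col1 replicate 2). Directly between the ACLP groups 9 were lower and none higher, against 0.905% and 0.571%, with a median of -0.20. Asns, asparagine synthetase, was at 62.9 ± 3.47 CPM on col1, 158 ± 11.2 on col1-ACLP and 121 ± 4.06 with the inhibitor, and its log2 fold changes against col1 were 1.33 and 0.95. The direct difference was -0.38 (adjusted p = 0.000496 by edgeR). Atf4 itself, whose activity is set largely by translation, was at 272 ± 15.8, 386 ± 18.4 and 342 ± 13.2 CPM (log2 fold change 0.50 and 0.33 against col1).

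Among the ATF4 response genes named by rule, Trib3 had the largest estimates (log2 fold changes 1.91 and 1.59 against col1), followed on col1-ACLP by the mitochondrial folate enzyme Mthfd2 (1.43 and 0.97), then Asns, the folate enzyme Aldh1l2 (1.13 and 0.81) and the lipoprotein receptor Vldlr (1.02 and 0.80). The tRNA synthetases Aars1 (0.87 and 0.67) and Gars1 (0.78 and 0.50) and the serine synthesis enzyme Psat1 (0.63 and 0.32) rose as well, all with adjusted p at or below 0.000128 in edgeR. Mthfd2 (-0.46), Aldh1l2 (-0.32), Gars1 (-0.28) and Psat1 (-0.31) were also lower with the inhibitor than without it. For the stress gene Ddit3 (CHOP) the estimate on col1-ACLP was 0.08 on the log2 scale and did not pass (adjusted p = 0.626 by edgeR). It ran from 0.034 to 0.14 over the libraries left out in turn. Atf4, Ddit3 and Cebpb were named after their values were seen.

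The NRF2 targets, an antioxidant group to which Slc7a11 is often assigned, were mixed. Of 9 tested, 4 rose and 1 fell on col1-ACLP, against 9.52% and 8.41% of all tested genes, with 2 of the risers past the fold threshold, against 2.61%, and a median of 0.05. On col1-ACLP+SB 2 rose and none fell against col1 (median 0.04), against 4.6% and 4.54%. Between the ACLP groups 0 passed (median -0.01), against 0.571% higher and 0.905% lower. The quinone reductase Nqo1 (0.83 and 0.62 against col1) and glutathione reductase Gsr (0.72 and 0.48) rose in both comparisons. Gclm, a subunit of the glutathione-synthesis enzyme, rose on col1-ACLP (0.32, adjusted p = 0.00199 by edgeR), with 0.18 on col1-ACLP+SB (adjusted p = 0.145), and the difference between them did not pass either (adjusted p = 0.419). G6pdx, which supplies NADPH, also rose (0.22, adjusted p = 0.00875 by edgeR). Haem oxygenase Hmox1 fell slightly on col1-ACLP (-0.15, adjusted p = 0.0283 by edgeR), a call lost in 6 of 20 alternative settings (adjusted p up to 0.124), among them without col1 replicate 2.

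A list of mTORC1 sensing genes was counted in the same way. Beside amino acid sensors and their complexes it held mTORC1 subunits such as Mtor and Rptor and the regulators Tsc1, Tsc2 and Rheb. Of 31 tested, 2 rose and 4 fell on col1-ACLP, with a median of -0.01, against 9.52% and 8.41% of all tested genes. On col1-ACLP+SB 2 rose and 2 fell against col1 (median -0.03), against 4.6% and 4.54%, and 0 passed between the ACLP groups (median 0.02), against 0.571% higher and 0.905% lower. The leucine-sensor family gene Sesn1 fell, from 124 ± 12.6 CPM on col1 to 78.7 ± 6.19 on col1-ACLP and 93.3 ± 4.87 with the inhibitor (log2 fold change -0.65 and -0.41, adjusted p = 7.70e-08 and 0.000148 by edgeR). Its relative Sesn3 fell as well (-0.29 and -0.24). The third sestrin, Sesn2, counted here with the ATF4 response, rose on col1-ACLP (0.28, adjusted p = 0.00483 by edgeR), with 0.20 on col1-ACLP+SB (adjusted p = 0.0900). The GATOR2 subunits Sec13 (0.41 and 0.38) and Seh1l (0.26 and 0.28) rose in both comparisons. The folliculin gene Flcn fell on col1-ACLP (-0.23, adjusted p = 0.00674 by edgeR), as did its partner Fnip1 (-0.25, adjusted p = 0.00809). Sesn2, Seh1l, Fnip1, G6pdx and Cd68 were named after their values were seen. The GATOR2 subunit Mios did not pass (-0.18, adjusted p = 0.136 by edgeR).

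**Figure D5:**
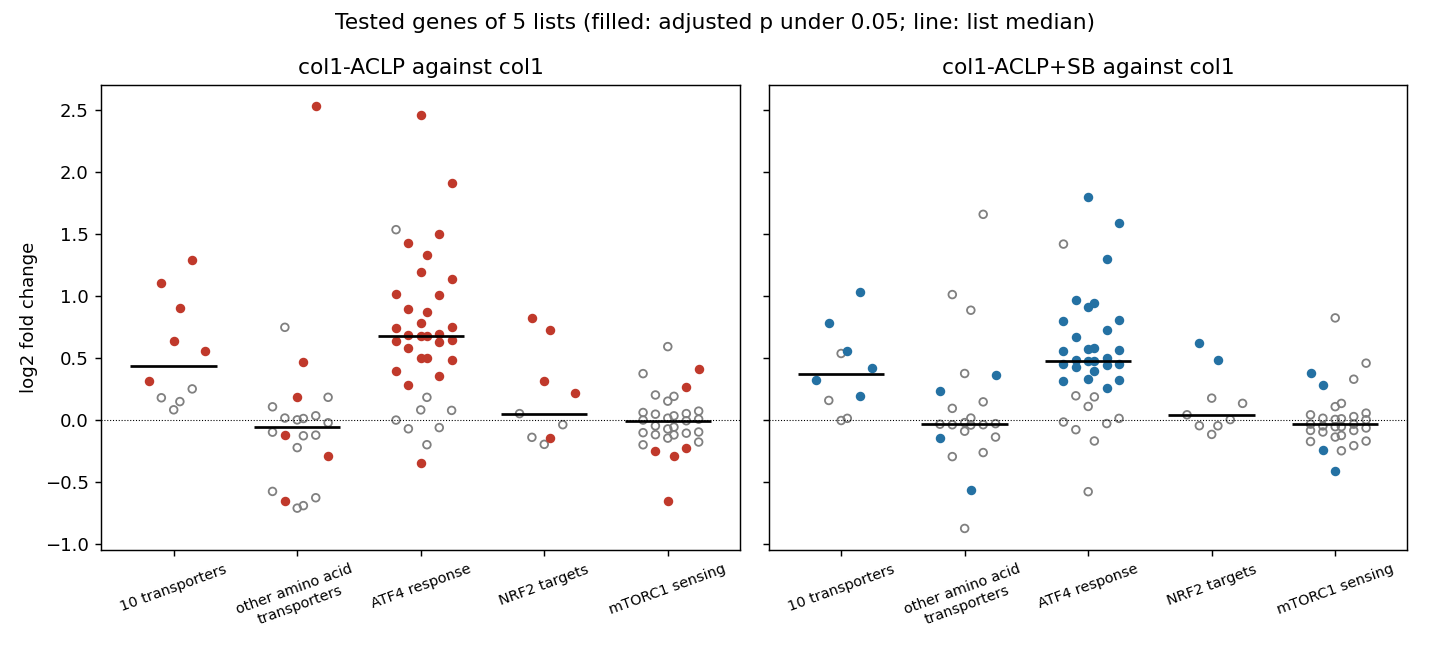
Log2 fold change of every tested gene of 5 lists in the 2 groups with ACLP, each against col1. Filled points have an adjusted p under 0.05 and lines mark each list's median, which on col1-ACLP was 0.44 for the 10 transporters, -0.06 for the other transporters, 0.67 for the ATF4 response, 0.05 for NRF2 targets and -0.01 for mTORC1 sensing.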

How the data were processed

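Poly(A)-selected RNA of 12 libraries, 4 each of col1, col1-ACLP and col1-ACLP+SB, was sequenced by the study. The deposited table holds raw read counts per gene that the authors made after alignment with HISAT2. The submitters' processing notes name the build mm10 and the study's methods GRCm39. Of 56017 gene identifiers found in GENCODE vM39 (GRCm39), 76.8% had the same start or end as in the table and 60.3% had both, so GRCm39 coordinates are given. The counting tool, its version and its strand setting are not given in the sources used here. The gene length used for CPM per kilobase is the one the table lists.

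Counts were tested with edgeR 4.0.16 (R 4.3.3), with quasi-likelihood fits of 1 mean per group over all 12 libraries, TMM factors from 0.966 to 1.02, the filterByExpr filter and Benjamini-Hochberg adjustment over 16465 genes. The thresholds, an adjusted p under 0.05 and an absolute log2 fold change over 0.58, are those of the study, which used DESeq2. Standard errors are the fold change divided by the root of its F statistic. CPM values are TMM-scaled, and correlations used log2 CPM with a prior count of 2. Replicate pairs differed by 7.49 to 19.7 times sampling noise (chi-square per degree of freedom). The p-values rest on a spread within groups that is shared over all 12 libraries, not estimated for each group by itself. The study describes the 4 libraries of a group as biological replicates.

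Alternatives were RLE size factors, library size alone, no filter, a mean of at least 10 counts, only the 2 groups compared, a replicate block, DESeq2 1.42.0, limma-voom 3.58.1 and each library left out in turn, 20 settings in all. The scripts were tested on simulated data. Named genes were all 10 transporters, the other transporters past both thresholds or with the 3 smallest p in a comparison, the 3 with the smallest p of the mTORC1 and NRF2 lists, the 5 with the smallest p of the ATF4 list, and the 3 genes most correlated with each transporter past both thresholds. The transporters and the lists were chosen with earlier results of these data known. Cebpb, Atf4, Ddit3, Slc7a2, Slc7a6, Sesn2, Seh1l, Fnip1, G6pdx, Cd68 and the opposite-strand neighbours Snhg1, B4galt2 and Ccdc24 were named outside that rule.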

Additional observations from a re-analysis of the deposited data

Results flagged for a closer look

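Slc7a5 and Slc7a1 were lower in cells on ACLP with SB431542 than in cells on ACLP without it. No group had the inhibitor on collagen alone, so a change of the ACLP effect and an effect of the inhibitor by itself cannot be told apart. The direct contrast of the ACLP groups was a log2 fold change of -0.32 for Slc7a5 (adjusted p = 0.00554 by edgeR) and -0.35 for Slc7a1 (adjusted p = 0.00350 by edgeR), and all 4 inhibitor libraries lay below all 4 col1-ACLP libraries for both genes.

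In the col1-ACLP group replicate 4 lay far above the other 3 libraries for Slc3a2 and Slc1a4. Its gap to the next library took up 0.848 of the group's range of log2 CPM for Slc3a2 and 0.924 for Slc1a4, above Dixon's critical value for 4 samples. Chance flags about 1 in 20 such groups, and 30 groups of 4 libraries were examined.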

How the results depend on the processing

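The counts of transporters past the adjusted p held within 1.5 times under all 20 settings in both comparisons against col1. Between the ACLP groups the count was 4 without col1-ACLP+SB replicate 2, 3 with no filter and 2 as reported, and ran from 2 to 4 over the libraries left out in turn. The replicate numbers did not pair the libraries (same-numbered correlations of -0.0372 to 0.0360), and with the replicate block the counts were again 6, 6 and 2, with 4, 2 and 0 past the fold threshold. Of 600 recomputed fold changes of single transporters 583 kept direction and side of the threshold, 4 lost their call, 3 gained one and 10 changed sign.

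Without col1 replicate 2, a setting chosen for the lists after seeing the data, the list counts on col1-ACLP moved. Of 31 tested genes of the mTORC1 list 2 rose and 5 fell. Of 37 of the ATF4 list 29 rose and 2 fell, and of 9 of the NRF2 list 4 rose and 0 fell. With all 12 libraries 9.52% of tested genes rose and 8.41% fell. The shares over all tested genes without col1 replicate 2 are not given here. The sign changes were all in comparisons that the gene had not passed. Over the libraries left out in turn the log2 fold change ran from -0.0049 to 0.30 for Slc7a3 on col1-ACLP, from -0.038 to 0.070 for Slc38a1 and from -0.014 to 0.017 for Slc38a2 on col1-ACLP+SB against col1, and from -0.20 to 0.019 for Slc1a5 between the ACLP groups. It ran from -0.052 to 0.043 for Mios and from -0.13 to 0.013 for Slc38a6 on col1-ACLP+SB against col1, and from -0.018 to 0.12 for Snhg1 between the ACLP groups. With library size alone Slc38a1 was at -0.010 and Mios at -0.021 on col1-ACLP+SB against col1, and Mios was at -0.0017 with only the 2 groups compared and -0.0042 with limma-voom. On col1-ACLP Slc7a6 ran from -0.041 to 0.031 over the libraries left out, and was at -0.048 with library size alone and -3.25e-05 with only the 2 groups compared. Between the ACLP groups Slc7a2 was at 0.0050 with library size alone, and Seh1l ran from -0.011 to 0.039 over the libraries left out. Over all genes, those past both thresholds between the ACLP groups numbered 21, and 46 with no filter, 46 with DESeq2, 10 without col1-ACLP replicate 4 and 11 without col1-ACLP+SB replicate 4. The cause was not tested. Low counts limit Slc7a3, and among the other genes named Slc6a20b (119 reads over 12 libraries, not tested in every setting) and Slc6a7 (342 reads).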
